A study of Oryza sativa Japonica Group with 9 samples.

Results

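PHR1, PHR2, PHR3, PHR4 and PHO2 are 5 genes of the phosphate signalling pathway of rice, chosen by their locus identifiers from the 35902 genes listed in either of 2 deposited expression tables, and each of the 5 was in both tables. RNA was sequenced from roots of the Japonica cultivar Nipponbare under control nutrients (labelled CK), nitrogen (N) deficiency or phosphorus (P) deficiency, with 3 biological replicate libraries per group. No mutant or transgene is named in the labels, and the sources used here give neither plant age nor the length of the treatments. The same 3 control libraries served both deficiencies.

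PHR proteins are transcription factors with a MYB DNA-binding domain and a coiled coil that switch on phosphate starvation genes. SPX proteins hold PHR factors back when phosphate is plentiful and let go of them when it runs short. PHO2 is a ubiquitin-conjugating enzyme that marks phosphate transport proteins for breakdown, and in Arabidopsis as in rice its transcript is cut by the microRNA miR399 during phosphate starvation. PHR2 is best known in rice as the central activator of this response, and PHR1 and PHR3 share its work.

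PHR4 and PHR3 moved in opposite directions. PHR4 rose under both deficiencies, 2.56-fold under P deficiency and 1.41-fold under N deficiency, while PHR3 fell 1.52-fold and 1.56-fold. The PHR4 rise under P deficiency passed with each library left out. The PHR4 rise under N deficiency and both PHR3 falls each missed the threshold in 4 of 6 such fits. PHO2 stood 2.19-fold higher in N-deficient than in P-deficient roots. The control mean of PHO2 lay between them, but neither comparison with control passed, and control and P libraries overlapped. PHR1 and PHR2 passed no test. Of the 5 genes, 2 passed under N deficiency (12.8% of all 32680 genes tested passed), 2 under P deficiency (6.28% of 32576) and 2 between the deficiencies (3.88% of 32119). In whole roots, fewer cells of a type and less RNA per cell cannot be told apart.

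Each library held 17931136 to 22752604 reads in genes, and the 5 genes had from 381 reads (PHR3, N library 2) to 11315 reads (PHO2, N library 1), which by counting alone gives an SD of 5.12% to 0.940% of the value. Counting error excludes differences between plants, so it is a lower limit. The root genes LSI1, LSI2 and RCc3 were high in every library, LSI1 from 21150.5 to 37848 normalised reads. The root gene NAR2.1 was at 1927 to 2505 normalised reads in control, 21350 to 31610 in N and 614 to 1166 in P libraries. CASP1, also listed as a root gene, was not among the genes present in both deposited tables and has no values here. Chlorophyll a-b binding genes, 22 genes listed as shoot markers, were present as well. Their sum was 23135 to 63439 normalised reads in control, 6907 to 9854 in N and 17812 to 26030.4 in P libraries. Whether these reads came from shoot tissue was not tested. P library 3 stood apart on the third principal component (16.4% of the variance), at 100.5 against -41.5 to 20.9 in the other libraries. Normalised reads per library below are on 1 scale for all 9 libraries. Log2 fold changes against control come from the 2 tables as scaled by the authors, are on the log2(value + 1) scale and carry their SE. The threshold was an adjusted p under 0.05.

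**Figure D1:**
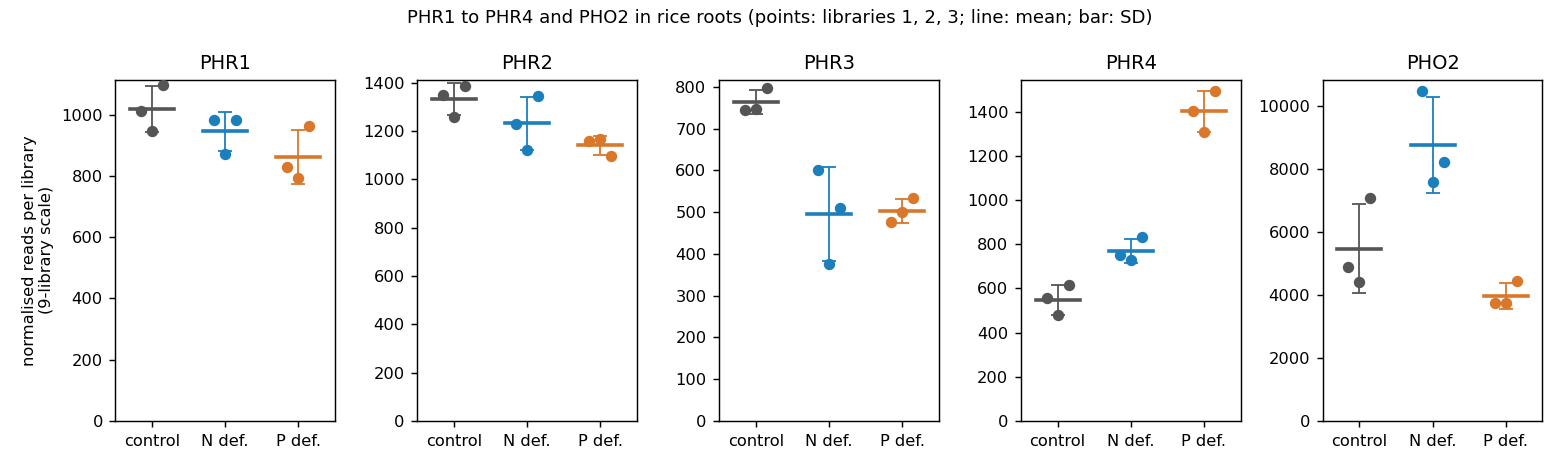
Normalised reads of PHR1 to PHR4 and PHO2 (vertical axes, from 0) in each of 3 control, 3 N deficiency and 3 P deficiency libraries, with the mean as a line and the SD as a bar. The 3 groups of PHR4 stand apart in steps from control (477 to 614) over N deficiency (727 to 830.4) to P deficiency (1309 to 1493).

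PHR4 (Os06g0703900, chromosome 6, 29723508 to 29727074, plus strand) encodes a MYB-CC factor and was the PHR gene with the lowest level per length in control roots. Control libraries 1, 2 and 3 held 554, 477 and 614 normalised reads of PHR4. N libraries held 750.2, 727 and 830.4, and P libraries held 1402, 1309 and 1493. Every N library was above every control library, and every P library was above every N library. The mean was 548 ± 68.6 in control, 769 ± 54.3 in N-deficient and 1401 ± 92.1 in P-deficient roots (SD, n = 3).

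The rise of PHR4 under P deficiency was 1.36 ± 0.118 in log2 units (limma, Benjamini-Hochberg adjusted p = 0.00115), and it passed with each library left out in turn, at an adjusted p of at most 0.012 (limma). Under N deficiency it was 0.50 ± 0.119 (limma, Benjamini-Hochberg adjusted p = 0.0278). That smaller rise missed the threshold without N library 1 (limma, adjusted p = 0.0705), N library 3 (0.104), control library 1 (0.0849) or control library 2 (0.0964). N and P deficiency differed in PHR4 by -0.86 ± 0.112 (limma, Benjamini-Hochberg adjusted p = 0.00183), with a 95% interval of -1.12 to -0.61. The difference passed under each of the 16 alternatives run. Those that left out a control library changed the shared spread and not the difference itself.

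PHR3 (Os02g0139000, chromosome 2, 2075629 to 2079136, minus strand), a close relative that acts with PHR1 and PHR2, was lower under both deficiencies. Control libraries 1, 2 and 3 held 745, 747 and 796 normalised reads of PHR3. N libraries held 601, 377 and 509, and P libraries held 477, 499 and 533. All 6 deficient libraries lay below all 3 control libraries, and N and P libraries overlapped. The N libraries were the most uneven, with an SD of 22.7% of their mean against 3.75% in control and 5.61% under P deficiency, and N library 2 was the lowest of all 9.

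The log2 fold change of PHR3 was -0.60 ± 0.0923 under P deficiency (limma, Benjamini-Hochberg adjusted p = 0.0117) and -0.64 ± 0.162 under N deficiency (limma, Benjamini-Hochberg adjusted p = 0.0335). Under P deficiency the call was lost without P library 1 (limma, adjusted p = 0.056), P library 2 (0.0513), control library 1 (0.0595) or control library 2 (0.0558). Under N deficiency it was lost without N library 3 (limma, adjusted p = 0.0836) or without control library 1 (0.0932), 2 (0.0991) or 3 (0.082). The fall kept its sign in each of these fits. N minus P deficiency was -0.05 on the log2 scale with a 95% interval of -0.38 to 0.29 (limma, Benjamini-Hochberg adjusted p = 0.919), and the sign was positive with libraries scaled to the same total (0.01) and without N library 2 (0.14). PHR3 overlaps 45 bases of Os02g0138900 on the other strand, a sodium/calcium exchanger gene with 53.2 ± 7.87 normalised reads in control and 74.8 ± 18.4 under N deficiency in the authors' scaling. That neighbour's log2 fold changes were 0.46 under N and 0.50 under P deficiency and missed the threshold (limma, Benjamini-Hochberg adjusted p = 0.276 and 0.418). The sources used here do not say whether reads were counted by strand, and without strand the reads of the shared bases cannot be told apart.

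PHR2 (Os07g0438800, chromosome 7, 14753753 to 14759288, plus strand), the main activator, was the most abundant PHR gene per length in control roots. Control libraries 1, 2 and 3 held 1349, 1259.5 and 1387 normalised reads of PHR2. N libraries held 1229, 1123 and 1344, and P libraries held 1160.4, 1167 and 1095. The P libraries lay below the control libraries without overlap, and the N libraries overlapped both groups. The log2 fold change was -0.22 ± 0.0860 under P deficiency (limma, Benjamini-Hochberg adjusted p = 0.191; unadjusted p = 0.0342) and -0.11 ± 0.0999 under N deficiency (limma, Benjamini-Hochberg adjusted p = 0.55). The 95% intervals, -0.42 to -0.02 and -0.34 to 0.12, bound the size of any change and do not show that PHR2 stayed the same.

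PHR1 (Os03g0329900, chromosome 3, 12126320 to 12131242, plus strand) is the rice namesake of the Arabidopsis factor in which this pathway was found. Control libraries 1, 2 and 3 held 1012, 945 and 1097 normalised reads of PHR1. N libraries held 983, 871 and 982, and P libraries held 830.4, 794 and 962. All 3 groups overlapped, and P library 3 was the one P library within the control range. The log2 fold change was -0.10 ± 0.10 under N deficiency and -0.24 ± 0.111 under P deficiency (limma, Benjamini-Hochberg adjusted p = 0.585 and 0.266), with 95% intervals of -0.33 to 0.13 and -0.50 to 0.02. Between N and P deficiency, neither PHR1 (0.14 ± 0.106) nor PHR2 (0.11 ± 0.0933) passed (limma, Benjamini-Hochberg adjusted p = 0.576 and 0.621).

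PHO2 (Os05g0557700, chromosome 5, 27740218 to 27749525, minus strand), the ubiquitin-conjugating enzyme downstream of the PHR factors, had the highest level per length of the 5 in every group. Control libraries 1, 2 and 3 held 4894, 4420.1 and 7081 normalised reads of PHO2. N libraries held 10479.5, 7585 and 8225, and P libraries held 3741, 3728 and 4451. Every N library was above every control and every P library, and P library 3 was just above control library 2. Control library 3 was well above the other control libraries, and the control SD was 26.0% of the mean.

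The difference between N and P deficiency in PHO2 was 1.13 ± 0.189 in log2 units (limma, Benjamini-Hochberg adjusted p = 0.00836), with a 95% interval of 0.71 to 1.55. This difference passed under each of the 16 alternatives, at an adjusted p of at most 0.0402 (limma). Here too, leaving out a control library changed only the shared spread. Neither comparison with control passed. N deficiency minus control was 0.70 ± 0.196 (limma, Benjamini-Hochberg adjusted p = 0.051), and P deficiency minus control was -0.43 ± 0.184 (limma, Benjamini-Hochberg adjusted p = 0.228). Without control library 3 the N value was 0.90 and passed (limma, adjusted p = 0.0114), while the P value was -0.24 and did not (0.432). In the authors' deposited table, the N comparison of PHO2 has a log2 fold change of 0.68 with an adjusted p of 0.011. DESeq2 on the recovered reads gave the same fold change (0.68, adjusted p = 0.0107) and is not separate evidence. The N comparison also passed in a limma fit over all 9 libraries (adjusted p = 0.039). Over all alternatives its adjusted p ran from 0.0107 (DESeq2) to 0.176 (limma).

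Control library 3, the highest control library for PHO2, also had the highest summed chlorophyll a-b binding reads, 63439, and the N libraries had both the lowest such sums and the highest PHO2. Whether the libraries held shoot tissue, and any part of it in the PHO2 values, was not tested. Os05g0557600, another gene with a ubiquitin-conjugating domain, lies 1899 bases from PHO2 on the same strand. It had 980 ± 47.8 normalised reads in control and 1096 ± 128 under N deficiency in the authors' scaling and passed in no comparison (limma, Benjamini-Hochberg adjusted p = 0.439 under N deficiency, 0.755 under P deficiency and 0.369 between them).

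**Figure D2:**
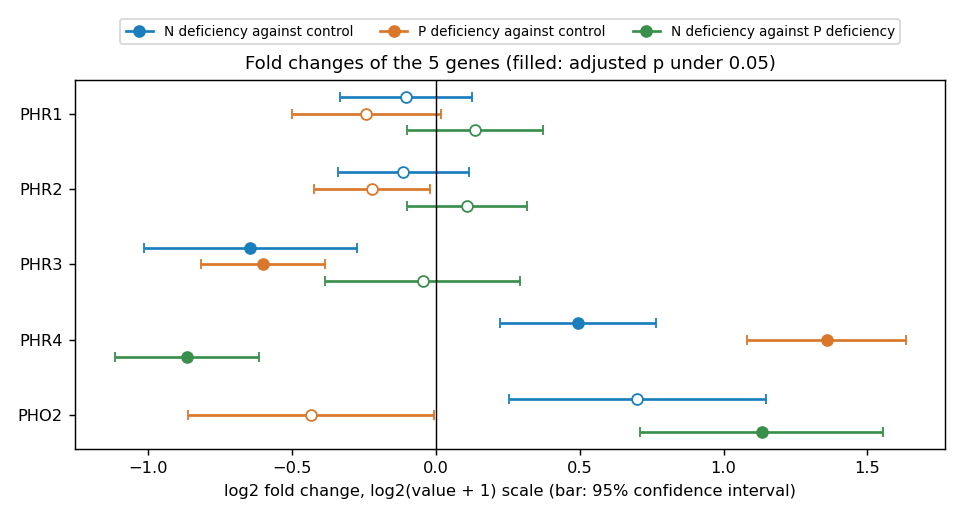
Log2 fold changes (horizontal axis, log2(value + 1) scale) with 95% confidence intervals for the 5 genes in 3 comparisons, filled where the adjusted p was under 0.05. PHR4 is filled in all 3 comparisons, PHR3 in both comparisons with control and PHO2 only in N against P deficiency (1.13), where PHR4 is negative (-0.86).

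Counting separation of the libraries alone, 3 of the 5 genes did not overlap between N deficiency and control (PHR3, PHR4 and PHO2), against 30.9% of all genes tested. The count was 3 between P deficiency and control (PHR2, PHR3 and PHR4), against 27.8%, and 2 between the deficiencies (PHR4 and PHO2), against 21.6%. With 5 genes these counts are a description.

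Divided by gene length, the order of the levels changed with the treatment. In control roots it was PHO2 (1282 ± 333 normalised reads per kb), PHR2 (711 ± 35.0), PHR1 (512 ± 38.5), PHR3 (411 ± 15.4) and PHR4 (298 ± 37.3; SD, n = 3), with no overlap between neighbours in the order. Under N deficiency PHR4 passed PHR3, at 419 ± 29.5 against 267 ± 60.7 per kb, and overlapped PHR1 at 475 ± 32.1. Under P deficiency PHR4 stood second at 762 ± 50.1 per kb, above PHR2 at 609 ± 21.2 and below PHO2 at 932 ± 97.0, again with no overlap between neighbours. In control roots PHO2 was above 93.2% and PHR4 above 71.8% of the 32806 genes ranked.

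The summed level of the 4 PHR genes was 1932 ± 123 normalised reads per kb in control, 1818 ± 160 in N-deficient and 2075 ± 83.8 in P-deficient roots. N and P libraries did not overlap in this sum, and each overlapped control. The members divided it differently. PHR4 took 15.4% ± 0.970 of the sum in control, 23.1% ± 1.27 in N-deficient and 36.7% ± 1.02 in P-deficient roots. PHR3 took 21.3% ± 0.824, 14.6% ± 2.43 and 13.1% ± 0.497 in the same order. The share of PHR2 was 36.8% ± 0.685 in control and 36.2% ± 1.16 under N deficiency, and 29.4% ± 2.16 under P deficiency, where PHR4 had the larger share in each library. PHR1 took 26.5% ± 0.325, 26.2% ± 0.654 and 20.9% ± 1.28. The shares are given as a description and were not tested.

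**Figure D3:**
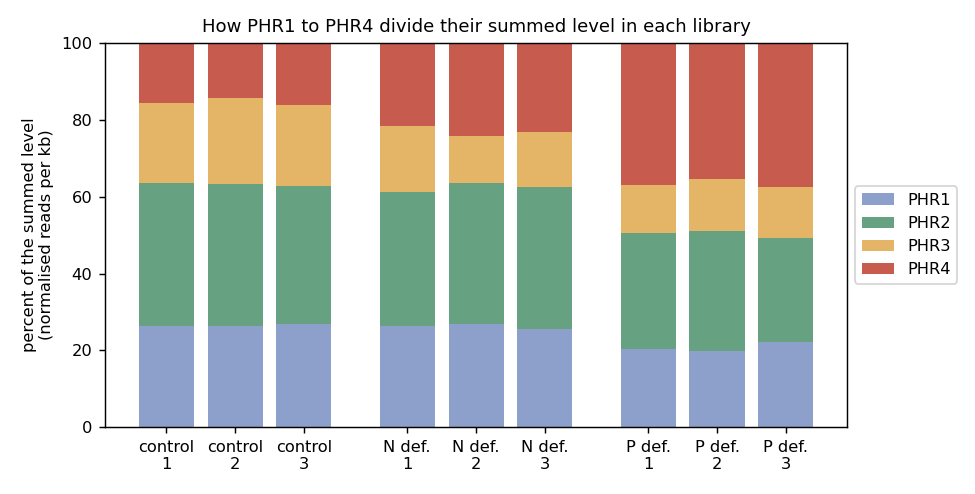
Share of PHR1, PHR2, PHR3 and PHR4 in their summed level (vertical axis, percent of normalised reads per kb) in each of the 9 libraries. The PHR4 share is 14.3% to 16.3% in the control libraries, 21.7% to 24.2% in the N libraries and 35.5% to 37.5% in the P libraries.

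The genes around these 5 in the pathway were described from a hand-written list of 26 loci, of which 25 were in the tables. The list was chosen with earlier results of these data known, so its counts and medians are a description. Under P deficiency 13 of 25 rose, 4 fell and 8 did not pass, with a median log2 fold change of 1.20 against 0.00 over all genes tested (3.58% of all genes rose and 2.7% fell). Of all calls under P deficiency 57.0% were rises, or 44.5% with libraries scaled to the same total. Under N deficiency 2 of 24 rose, 7 fell and 15 did not pass, with a median of 0.01 against -0.01 (6.9% of all genes rose and 5.94% fell). That count of 9 was 5 without N library 3 or control library 2. The comparisons share their control libraries.

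The SPX sensors, which bind and restrain PHR factors, included 5 risers of 6 under P deficiency: SPX1 (3.70 ± 0.121 on the log2 scale), SPX2 (3.47 ± 0.121), SPX5 (6.70 ± 0.188), and SPX3 and SPX6, which went from 0.618 ± 1.07 each to 28.1 ± 7.80 and 188 ± 32.3 normalised reads in the authors' scaling (limma, Benjamini-Hochberg adjusted p from 4.77e-06 to 0.00451). SPX4, which in rice also links phosphate to nitrate signalling, was at -0.02 with P and -0.01 with N deficiency and passed in neither. Of 5 PHT1 phosphate uptake transporters, which are PHR targets, PT2, PT4, PT6 and PT8 rose by 1.78, 2.80, 7.70 and 2.07, and PT1 was at -0.02. Of 3 PHO1-type phosphate exporters, which PHO2 acts on in Arabidopsis, PHO1;1 and PHO1;3 rose by 2.19 and 2.38 (limma, Benjamini-Hochberg adjusted p = 0.00641 and 0.0108), and PHO1;2 was at 0.84 and did not pass (0.0844), though it did with DESeq2 (0.00986), and in a limma fit over 9 libraries (0.0463). Each of these 11 rises passed with any 1 library left out.

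Under N deficiency 9 of these genes passed. Among SPX sensors, SPX2 rose by 0.61 ± 0.142 (limma, Benjamini-Hochberg adjusted p = 0.0249), a call lost without N library 1 or 3 or control library 1 or 2 (adjusted p up to 0.0931). Among the SPX-MFS genes, vacuolar phosphate transporters, SPX-MFS1 rose by 2.79 ± 0.590 and SPX-MFS2 fell by 4.02 on the log2 scale. Both rest on low levels in 1 group. In the authors' scaling SPX-MFS1 went from 5.09 ± 4.66 to 34.1 ± 11.1 normalised reads, and SPX-MFS2 from 286 ± 100 to 19.8 ± 13.8. The SPX-MFS1 call was lost without N library 2 or 3 or control library 2 (limma, adjusted p up to 0.0739). SPX-MFS2 rose by 1.26 ± 0.215 under P deficiency, a call lost without P library 1 or 2 or control library 1 or 2 and in a fit over all 9 libraries (limma, adjusted p up to 0.151). SPX-MFS3 passed in neither comparison with control, at 0.03 under N and -0.48 under P deficiency, where its libraries were lower than control without overlap (limma, Benjamini-Hochberg adjusted p = 0.917 and 0.174). For P deficiency SPX-MFS2, SPX-MFS3, NRT1.1B, NLA1, HRZ1 and Os07g0187700 are named after their values were seen. PT4 fell by 0.95 under N deficiency, a call lost without N library 2 or 3 or any 1 control library (limma, adjusted p up to 0.118).

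Of the remaining 8 listed genes, regulators and RLI1, 5 fell and 0 rose under N deficiency, and 4 fell and 1 rose under P deficiency. RLI1 is a MYB-CC factor related to the PHR genes. In the authors' scaling, separate for each deficiency, RLI1 fell from 2507 ± 374 to 616 ± 120 normalised reads under N deficiency. Under P deficiency it fell from 2391 ± 343 to 702 ± 38.6. The log2 fold changes were -2.03 ± 0.158 and -1.76 ± 0.121 (limma, Benjamini-Hochberg adjusted p = 2.14e-04 and 4.21e-04). NRT1.1B, a nitrate sensor that in rice acts on SPX4, fell by 3.28 and by 1.68 on the log2 scale. Its fall under P deficiency missed the threshold without P library 1 or control library 1 or 3 (limma, adjusted p up to 0.0779). HRZ2, a hemerythrin-domain ubiquitin ligase, fell by 1.19 under N deficiency (limma, Benjamini-Hochberg adjusted p = 0.00383) and was at -0.28 under P deficiency without passing.

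HRZ1, the other hemerythrin ligase, fell by 0.37 and by 0.52 under N and P deficiency (limma, Benjamini-Hochberg adjusted p = 0.0489 and 0.0261). Its N call was lost whichever library was left out, with the pseudocount of 0.1 and without the filter (limma, adjusted p up to 0.141), and its P call without P library 1 or 2 or any 1 control library (0.0996). NLA1, a RING ubiquitin ligase that works beside PHO2 on phosphate transporters, fell by 0.97 under P deficiency (limma, Benjamini-Hochberg adjusted p = 0.0448), a call lost without P library 1 or 2 or any 1 control library (0.142), and was at -0.09 under N deficiency. The locus Os07g0187700, which has no symbol or domain in the sources used here, fell by 0.56 under N deficiency and rose by 0.96 ± 0.167 under P deficiency, the latter lost without P library 1 or 2 or any 1 control library (limma, adjusted p up to 0.0829). The CK2 kinase subunit genes CK2A3 and CK2B3 passed in neither comparison with control. Between N and P deficiency 1 gene of the 25 was higher under N (1.43% of all genes) and 15 were lower (2.45%). Of all calls between the deficiencies 36.8% were higher under N, or 50.8% with libraries scaled to the same total. By size the lower ones were led by PT6 (-7.00 in log2 units), SPX5 (-6.32), SPX6 (1.89 under N against 192 normalised reads under P deficiency), SPX-MFS2 (-5.28), SPX3 (0.659 against 28.7 normalised reads) and PT4 (-3.76). SPX1 (-3.48), SPX2 (-2.86), PHO1;1 (-2.84), PT2 (-2.59), PT8 (-1.83) and PHO1;3 (-1.61) came next, and the PHO1;3 call was lost without any 1 N library or P library 2 or 3 (limma, adjusted p up to 0.082). The higher one, named because it was alone, was NLA1 at 0.88 ± 0.199 (limma, Benjamini-Hochberg adjusted p = 0.039), a call lost without any 1 N library, P library 1 or 2 or control library 2 (adjusted p up to 0.147).

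**Figure D4:**
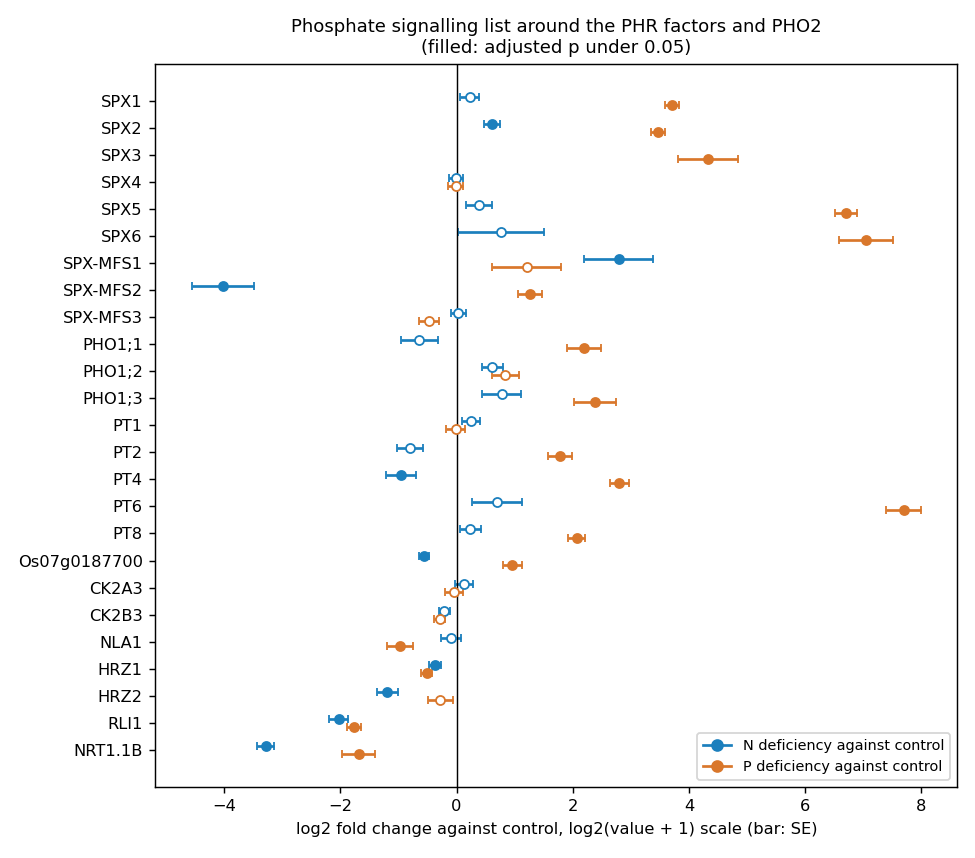
Log2 fold changes with SE (horizontal axis, log2(value + 1) scale) of the pathway list under N and P deficiency, filled where the adjusted p was under 0.05. The SPX sensor, PHO1 and PT genes other than SPX4 and PT1 lie to the right under P deficiency, up to 7.70 for PT6, and RLI1 and NRT1.1B lie to the left under both.

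The deposited domains gave 13 MYB-CC genes, PHR1, PHR3, PHR4 and RLI1 among them. The deposited domain entry of PHR2 holds only the MYB domain. Under P deficiency 1 of the 13 rose (PHR4) and 2 fell (PHR3 and RLI1), against 3.58% and 2.7% of all genes, with a median log2 fold change of -0.01. Under N deficiency PHR4 and Os08g0434700 (0.54 ± 0.0882) rose and PHR3 and RLI1 fell, against 6.9% and 5.94% of all genes, with a median of -0.04. The count of 4 was 2 without N library 3 or control library 1 or 2. Between the deficiencies PHR4 and Os08g0346500 (-0.56 ± 0.114) were lower and Os08g0434700 (0.54 ± 0.113) was higher under N deficiency, against 2.45% lower and 1.43% higher of all genes. Calls of Os08g0346500 were lost without N library 1 or 3 or P library 1 or 2, and those of Os08g0434700 between the deficiencies without any 1 N library, P library 1 or 2 or control library 1 and in a fit of 6 libraries (limma, adjusted p up to 0.0942 and 0.114), so that the 3 calls became 1 without N library 1 or 3 or P library 1 or 2. In control roots RLI1 had the highest level per length of the 13 and PHR1, PHR3 and PHR4 ranked 3, 5 and 7.

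Of 44 genes with a ubiquitin-conjugating domain, PHO2 ranked 17 by level per length in control roots. Under N deficiency 2 of 43 tested rose and 1 fell, where 12.8% of all genes passed (6.9% rose and 5.94% fell). The 3 calls became 1 without control library 1, 5 without control library 3 or in a fit over 9 libraries, and 6 with DESeq2. Os01g0233900 rose by 1.01 ± 0.165 and Os04g0684800 by 0.63 ± 0.132, and Os03g0791800, the most abundant of them, fell by 0.65 on the log2 scale. The Os04g0684800 call was lost without N library 1 or 3 or control library 1, and the Os03g0791800 call without control library 1 (limma, adjusted p up to 0.0606 and 0.0766). Under P deficiency, where 6.28% of all genes passed, 0 of 42 passed with limma, 8 had an unadjusted p under 0.05, edgeR called 0, DESeq2 called 3, scaling to the same total 2, and the fits over 9 libraries and without P library 3 called 1 each. Between the deficiencies PHO2 and Os02g0721100 (1.84 ± 0.405) of 42 were higher under N deficiency and 0 lower, against 1.43% and 2.45% of all genes, the latter gene's call lost without any 1 N library, P library 1 or 2 or control library 1 (limma, adjusted p up to 0.15). These 2 calls became 4 with DESeq2 and 5 without P library 3.

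**Figure D5:**
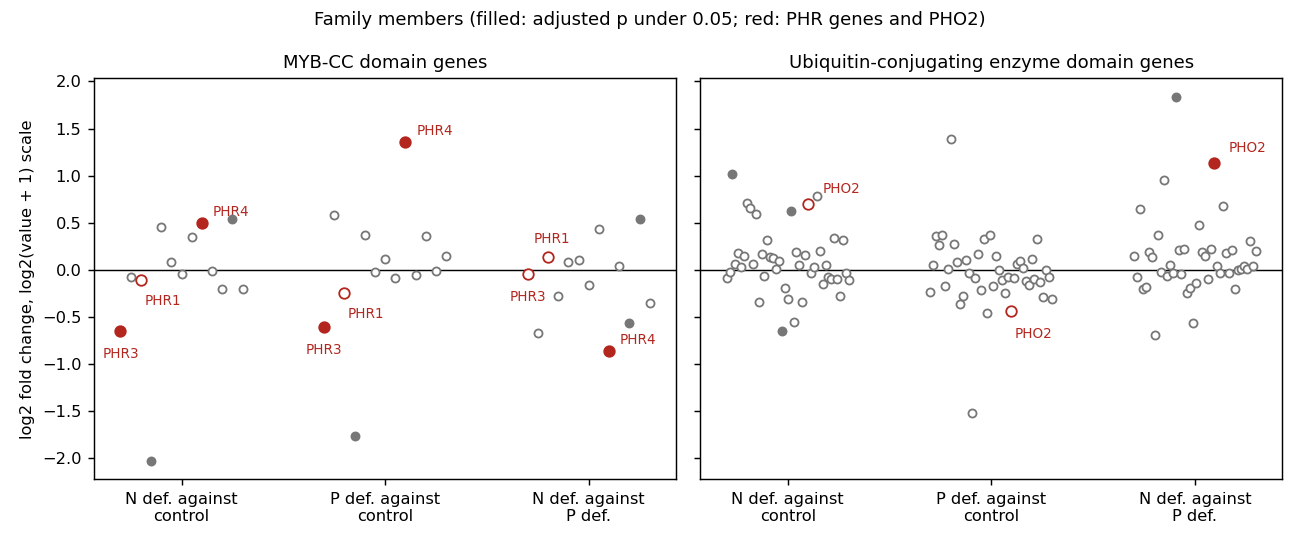
Log2 fold changes (vertical axis, log2(value + 1) scale) of 13 MYB-CC genes and of the genes with a ubiquitin-conjugating domain in 3 comparisons, filled where the adjusted p was under 0.05, with the PHR genes and PHO2 in red. PHR4 is the highest MYB-CC gene under P deficiency (1.36), and RLI1 is the lowest under both deficiencies.

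The genes most alike in pattern were taken as the 3 with the highest Pearson correlation of log2 values over the 9 libraries, among 17786 genes with a mean of at least 100 reads. The libraries fall into 3 groups and share their scaling, so these values are a description. For PHR4 they were the aldose 1-epimerase gene Os09g0327400, the purple acid phosphatase gene Os12g0576600 and Os04g0456700, which has a PLAT/LH2 domain (r = 0.99 each). Os12g0576600 averaged 6.85 normalised reads in control, 58.9 in N-deficient and 1022 in P-deficient roots, the same order of groups as PHR4 over a wider range. For PHO2 they were Os09g0436500, the glycosyltransferase gene Os03g0757000 and Os01g0802700, a membrane transport protein gene (r = 0.98, 0.98 and 0.97), the last averaging 627 normalised reads in control, 1312 in N-deficient and 473 in P-deficient roots. For PHR3 they were the bromodomain gene Os07g0507700, the FAR1-domain gene Os02g0608300 and Os09g0496250 (r = 0.98 each). For PHR1 they were the transposase-related gene Os08g0208400, Os01g0629400 and Os12g0613000, an NF-YA subunit gene (r = 0.98, 0.97 and 0.97), and for PHR2 Os11g0303500, EPlOSAG00000020593 and MDAR2 (Os02g0707100; r = 0.97 each).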

How the data were processed

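Roots of 3 control, 3 N deficiency and 3 P deficiency samples were sequenced from TruSeq RNA libraries, per the labels. The submitters' processing notes list HISAT2 2.0.5 and, for these rice samples, the human build hg38; the sources used here give no counter, strand setting, annotation or rice build, so coordinates are printed as deposited. The deposited library values are a normalised signal, gene read counts that the authors divided by 1 size factor per library, separately in 2 tables. Whole reads were recovered for 100% of values within a tolerance of 0.001. Columns of log2 fold change, p-value and adjusted p-value were also deposited by the authors, who name no test in the sources used here, and were read as labelled in the headers. For PHR1 to PHR4 and PHO2 the deposited fold changes equalled those of DESeq2 on recovered reads after rounding. Group mean columns were not used.

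Each comparison was tested with limma 3.58.1 (R 4.3.3, intensity trend) on log2(value + 1) over all genes averaging 1 or more in 1 of the groups compared, with Benjamini-Hochberg adjustment. Comparisons with control used the 6 libraries of their table. N against P deficiency used all 9 libraries on median-of-ratios size factors. Levels per kb used the deposited gene length. Alternatives were edgeR 4.0.16 and DESeq2 1.42.0 on recovered reads, equal library totals, a pseudocount of 0.1, no filter, 9 or 6 libraries in the fit, a replicate block and each library left out. The limma, edgeR and DESeq2 fit functions were run on simulated reads with known changes. The recovery of reads, the fit over 9 libraries, the shares and the correlations were not. The 5 genes and all lists were chosen with earlier results of these data known. Of the pathway list all were counted, up to 12 passing genes by size of change were named per comparison, and those outside this rule are marked as chosen once values were known. Symbols of 3 of the 5 genes and 14 of the 25 listed loci were found in RefSeq (assembly ASM3414082v1) in the same chromosome region. The window searched was wide, so a match does not by itself identify the locus. The other names are from hand-written lists. Deposited domains fit for 24 of the 25.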

Additional observations from a re-analysis of the deposited data

Results flagged for a closer look

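The effects of N and P deficiency on PHR4 differed, by -0.86 on the log2 scale (N minus P), and those on PHO2 by 1.13, each by the contrast of the deficiencies itself (limma, Benjamini-Hochberg adjusted p = 0.00183 and 0.00836). For PHR4 both deficiencies lay above control and P deficiency lay further above. For PHO2 the 3 N libraries were above and 2 of the 3 P libraries below all control libraries.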

How the results depend on the processing

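Of 15 tests of the 5 genes, 11 kept their side of the threshold under every alternative run, and of 210 refits 12 lost and 4 gained a call. No called value changed sign; PHR3 between the deficiencies, which passed in no refit, changed sign in 2. PHO2 under N deficiency (0.70, not passing) passed with DESeq2 (0.68), in the fit over 9 libraries (0.70) and with the replicate block (0.70, adjusted p = 0.0352). With single libraries left out, log2 fold changes ran from 0.56 to 0.90 for PHO2, from 0.40 to 0.58 for PHR4 and from -0.80 to -0.46 for PHR3 under N deficiency, and from -0.65 to -0.56 for PHR3 under P deficiency. PHO2 under P deficiency ran from -0.57 to -0.24, the latter without control library 3. Leaving out a library also leaves fewer samples. For N against P deficiency, leaving out a control library cannot move the fold change, only its spread.

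Replicate numbers were not used to pair the samples in the main fits. Deviations of same-numbered libraries (1, 2 and 3) correlated at -0.04, 0.13 and 0.10 between N and control. They correlated at 0.01, 0.11 and 0.13 between P and control and at -0.06, 0.18 and 0.22 between N and P. Different-numbered libraries ran from -0.18 to 0.10, from -0.14 to 0.04 and from -0.25 to 0.14 in the same order. In each comparison the same-numbered values of replicates 2 and 3 were above all of these. Whether the numbers pair the samples cannot be told from these values. With the replicate block the counts of all genes passing went from 4194 to 4661, from 2047 to 2106 and from 1247 to 1528, and that of ubiquitin-conjugating genes under N deficiency from 3 to 5. PHO1;2 passed with the block under N (adjusted p = 0.0375) and P deficiency (0.012).

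Genes passing under N deficiency numbered 2622 (without N library 3) to 3710 with a library left out, 2749 without control library 1 and 2633 without control library 2. Under P deficiency they numbered 3256 with DESeq2 and 696 (without control library 1) to 3384 (without P library 3), with 827, 934, 753 and 1202 without P library 1, P library 2, control library 2 and control library 3. Between the deficiencies they numbered 2267 with DESeq2 and 693 (without N library 3) to 1579, with 737 and 754 without N library 1 and P library 2; the cause was not tested. Without dividing by gene length the PHR1 share was 27.8% in control and 27.5% in N-deficient roots. Counting error was 0.940% to 5.12% of a value of the 5 genes, against SDs between libraries of 3.49% to 26.0% of the mean.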

Other observations

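Set against the summed level of the 4 PHR genes, PHO2 per kb was 0.659 ± 0.130 in control, 1.13 ± 0.159 in N-deficient and 0.449 ± 0.0293 in P-deficient roots (SD, n = 3), with no overlap between the groups. PHR4 over PHR3 per kb was 0.725 ± 0.0708 in control, 1.62 ± 0.345 in N-deficient and 2.82 ± 0.161 in P-deficient roots, again with no overlap. Both ratios were chosen after the values were seen and have no test.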
